A study of Bos taurus with 12 samples.

Results

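The genes for mitochondrial protein import and for the shape of the inner membrane were compared between female and male bovine expanded blastocysts. They were taken from the count table by name: every symbol that starts with TOMM, TIMM, CHCHD or MICOS, together with SAMM50, IMMT, OPA1, MFN1, MFN2, DNM1L, PMPCA and PMPCB. This gave 43 of the 32637 genes listed, and the rule uses symbols, not values. The names bring in some genes with other roles, among them CHCHD1, a subunit of the mitochondrial ribosome, TIMMDC1, an assembly factor of respiratory complex I, and TOMM34, a cytosolic co-chaperone. Of the 43 genes, 42 had enough counts to be tested among 12802 genes. TOMM20L, a relative of the TOMM20 receptor, did not, with 2 to 11 counts per library.

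Nearly all mitochondrial proteins are made in the cytosol and imported. They enter through the TOM complex of the outer membrane, where receptors pass them to the TOMM40 channel, and are then sorted. Barrel proteins go to the SAM complex, proteins with a cleavable presequence go through the TIM23 translocase and lose the presequence to the processing peptidase, and carrier proteins are escorted by small TIM chaperones to the TIM22 translocase. Small cysteine-rich proteins are held in the intermembrane space by a disulfide relay of CHCHD4 and GFER. The MICOS complex holds the crista junctions and binds SAM across the intermembrane space, while OPA1 and the mitofusins fuse the membranes and DNM1L divides them. In the mammalian blastocyst, cristae become more developed than in the cleavage-stage embryo.

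The female group had 6 libraries and the male group 5. Each library was made from a pool of pieces of 2 bisected embryos of one sex, with the sex read by PCR from the remaining piece of each embryo. All embryos were produced in vitro from slaughterhouse oocytes, were fertilized with frozen semen of bulls used in weekly rotation, and carried no other treatment or genetic change. The labels give neither the collection week, the bull nor the age in days of a pool. A pool is the replicate, so p-values set the difference between the sexes against the spread between pools. The spread between single embryos was not measured.

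Counted reads ranged from 6664112 to 16162985 in female libraries and from 9942952 to 21392764 in male libraries. Male replicate 5 stood apart: its correlation with the other male libraries, across genes, was 0.861 to 0.887, against 0.936 to 0.963 among the other 4. It also had the fewest genes with a count, 14937. The 10 trophectoderm markers summed highest there, at 36145 CPM, that is counts scaled to a common library size. The sum was 7879 to 23154 CPM in females and 9195 to 20252 CPM in the other males. KRT8, at 20143 CPM, made up much of the sum in male replicate 5. CDX2, KRT18 and DAB2 were also highest there. GATA2, GATA3, TFAP2A, TFAP2C and PTGS2 were highest in female replicate 1, and LGALS3 in male replicate 2. Many, but not all, of the values that male replicate 5 moved are given with and without it. Among log2 fold changes (male over female) given below only with it, PMPCB went from 0.03 to 0.22 without it. TIMM29 went from 0.02 to 0.32, TOMM70 from 0.07 to -0.04 and OPA1 from -0.09 to 0.01. The 6 inner cell mass markers found in the table summed to 560 to 980 CPM in females and 792 to 1076 CPM in males, the 7 hypoblast markers to 228 to 621 CPM and 208 to 467 CPM, and the 7 cumulus markers to 7.19 to 32.7 CPM and 5.38 to 29.5 CPM. Of the 30 markers in the table, 24 had enough counts to be tested and edgeR called none of them, with 2 at an unadjusted p under 0.05, both lower in males: PTGS2 of the trophectoderm list, at a log2 fold change of -1.20 (SE 0.36), and CYP19A1 of the cumulus list, at -1.67 (SE 0.59). Their part in the results was not tested.

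Most import and cristae genes were slightly higher in males, and few of the differences were larger than the spread between pools. Of the 42 tested genes, 34 had a positive log2 fold change (male over female) and 8 a negative one, with a median of 0.20 and a range from -0.67 to 0.98. The median was 0.01 over all tested genes and 0.02 over autosomal genes, of which 52.4% were positive. Genes were called sex-biased at an FDR under 0.1 and a fold change over 1.5 in the quasi-likelihood test of edgeR. SAMM50 and CHCHD4 were called higher in males, 2 of 42 genes, where 0.414% of all tested genes were called. None was called higher in females, where 1.5% of all genes were called. At an unadjusted p under 0.05, 10 of the 42 were higher in males and 2 in females, against 6.26% and 6.95% of all tested genes. DESeq2 with the same library number called 4 higher in males (SAMM50, CHCHD4, TIMM17A and TIMM50) and 1 higher in females (TIMM8A), where it called 1.04% and 3.14% of all genes it fitted.

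Every male library was above every female library in 5 of the 42 genes, SAMM50, CHCHD3, MICOS10, CHCHD5 and TIMM10, as in 1.43% of all tested genes. The opposite held for 1 gene, the X-linked TIMM17B, as in 1.88% of all tested genes. In 21 of the 42 genes the fold change lay within 0.25 of 0 on the log2 scale. In bulk pools, a different share of a cell type and a different amount of RNA per cell cannot be told apart.

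**Figure D1:**
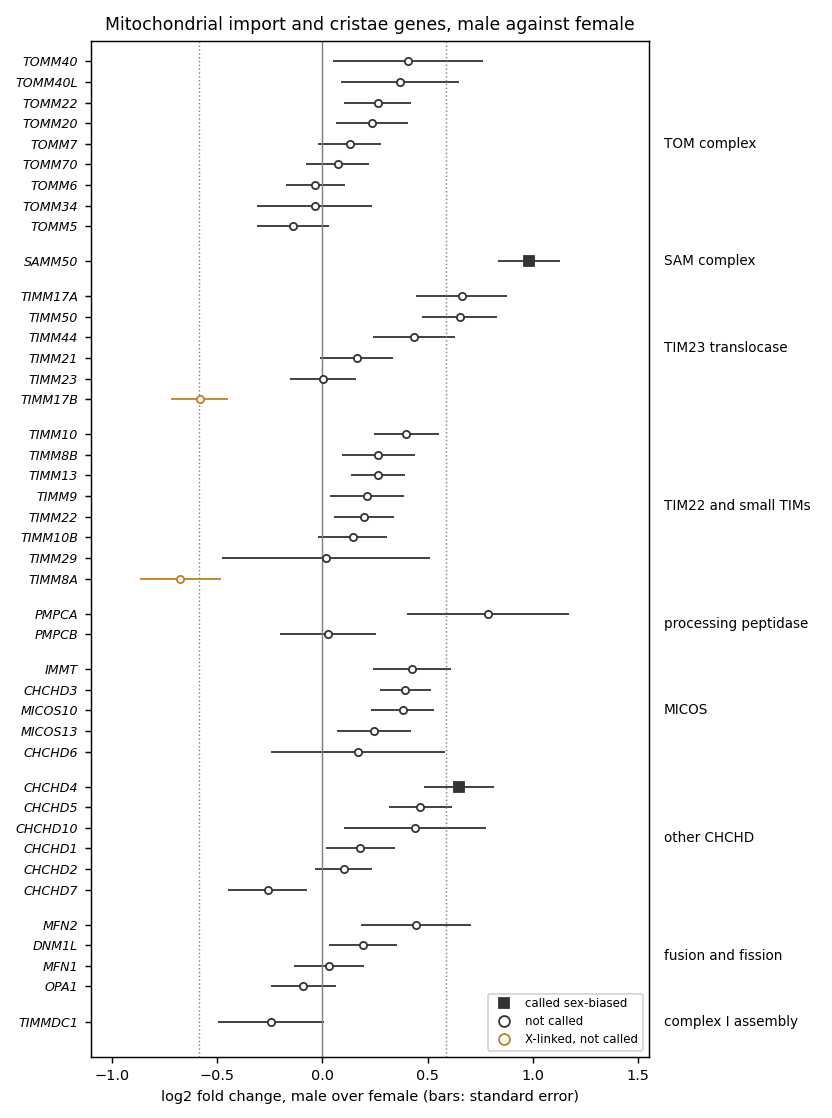
Log2 fold change (male over female, x axis) of the 42 tested genes, ordered by function, with standard errors as bars and dotted lines at a fold change of 1.5. SAMM50 at 0.98 lies farthest to the right, and the X-linked genes TIMM8A at -0.67 and TIMM17B at -0.58 farthest to the left.

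The gene with the largest called difference was SAMM50, the core barrel of the SAM complex, which inserts barrel proteins into the outer membrane (chromosome 5, 114695055 to 114725673, ARS-UCD2.0). In females its level ranged from 53.7 to 92.0 CPM with a median of 67.5 CPM. In the 5 male libraries it was 126, 129, 156, 128 and 136 CPM. The groups did not overlap, and the lowest male was well above the highest female. The means were 70.2 ± 12.9 CPM (SD, n = 6) and 135 ± 12.6 CPM (SD, n = 5), a 1.97-fold difference (log2 0.98, SE 0.15, edgeR adjusted p = 0.00779). SAMM50 was called in all 11 fits that left out 1 library, with log2 fold changes of 0.91 to 1.05. Without male replicate 5 and male replicate 4 together it was 0.98 (edgeR adjusted p = 0.0574). When the fold change of 1.5 itself was tested, the adjusted p from edgeR was 0.28.

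CHCHD4, the oxidoreductase that traps cysteine-rich proteins in the intermembrane space (chromosome 22, 58085512 to 58092162), was the other gene called. In females it ranged from 78.4 to 120 CPM with a median of 104 CPM. In males it was 146, 188, 103, 191 and 238 CPM. Male replicate 3 fell inside the female range and the other 4 males were above it. The means were 103 ± 17.8 CPM (SD, n = 6) and 173 ± 50.9 CPM (SD, n = 5), a 1.57-fold difference (log2 0.65, SE 0.17, edgeR adjusted p = 0.0975). The call was near the threshold: it was made in 0 of the 11 fits that left out 1 library, where the log2 fold change was 0.54 to 0.76 and the edgeR adjusted p 0.0937 to 0.245. Without male replicate 5 the FDR was still passed, but the log2 fold change of 0.55 was under the threshold. In each sex the library with the lowest CHCHD4 also had the lowest summed trophectoderm markers, 7879 CPM in female replicate 3 and 9195 CPM in male replicate 3, and male replicate 5 was highest in both. The single markers did not all follow their sum, and their part in the difference was not tested.

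The TOM complex is the general entry gate. Of the 9 tested genes named TOMM, among them the cytosolic TOMM34, edgeR and DESeq2 called none, and none passed an unadjusted p of 0.05. The median log2 fold change was 0.13, with 6 positive values and 3 negative ones between -0.14 and 0.41. The receptors TOMM20, TOMM22 and TOMM70 had log2 fold changes of 0.24 (SE 0.17), 0.26 (SE 0.16) and 0.07 (SE 0.15). The small subunits TOMM5, TOMM6 and TOMM7 had values of -0.14 (SE 0.17), -0.03 (SE 0.14) and 0.13 (SE 0.15). TOMM34 was at -0.04 (SE 0.27). Of the 42 tested genes, TOMM6 varied least among the female pools, at 5.44% of its mean.

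The TOMM gene farthest from 0 was TOMM40, the channel itself (chromosome 18, 52618989 to 52630589). Its level was 29.1 to 55.3 CPM in females, with a median of 46.4 CPM, and 71.2, 20.0, 59.6, 32.5 and 108 CPM in males. The males lay on both sides of the female range, from the lowest value of all in male replicate 2 to the highest in male replicate 5. The means were 43.2 ± 10.7 CPM (SD, n = 6) and 58.2 ± 34.4 CPM (SD, n = 5), with a log2 fold change of 0.41 (SE 0.36, edgeR adjusted p = 0.679). Without male replicate 5 the log2 fold change was 0.10.

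The TIM23 translocase takes presequence proteins into or across the inner membrane. Of its 6 genes, 5 had positive log2 fold changes and 1 a negative one, with a median of 0.30. None was called by edgeR, though 3 passed an unadjusted p of 0.05 upward and 1 downward, and DESeq2 called 2 of them higher in males. The widest range within a complex was here, from -0.58 for TIMM17B to 0.66 for TIMM17A, which encode alternative forms of the same channel subunit.

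TIMM17A (chromosome 16, 80530105 to 80543846) was at 13.8 to 26.6 CPM in females, with a median of 18.9 CPM. In males it was 25.0, 33.7, 17.1, 46.7 and 43.1 CPM. Of the males, 3 were above every female, and male replicate 3 was below the female median. The means were 19.2 ± 4.34 CPM (SD, n = 6) and 33.1 ± 12.3 CPM (SD, n = 5), with a log2 fold change of 0.66 (SE 0.21). It was not called by edgeR (adjusted p = 0.201) and was called by DESeq2 (adjusted p = 0.0883).

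TIMM17B (X chromosome, 87009809 to 87013636) had the opposite order. In females it ranged from 317 to 385 CPM with a median of 352 CPM. In males it was 188, 245, 225, 270 and 262 CPM, so that every male was below every female. The means were 352 ± 27.4 CPM (SD, n = 6) and 238 ± 32.9 CPM (SD, n = 5), with a log2 fold change of -0.58 (SE 0.13, edgeR adjusted p = 0.0686). It passed the FDR and fell just short of the fold change of 1.5, whose log2 is 0.585. Leaving out female replicate 3, female replicate 5, male replicate 4 or male replicate 5 each brought the call, as 4 of the 11 such fits, and so did TMM factors from autosomal genes, which gave a log2 fold change of -0.60. In the rest of the 11 fits it did not pass the FDR (edgeR adjusted p 0.138 to 0.209). Nor did it pass with the number in the sample title as a block (edgeR adjusted p = 0.23).

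Among the other TIM23 genes, TIMM50, the receptor on the inner side of the intermembrane space, averaged 126 ± 33.2 CPM in the females (SD, n = 6) against 210 ± 53.4 CPM in the males (SD, n = 5). It was picked out for its DESeq2 call after its values were seen. Its log2 fold change was 0.65 (SE 0.18, edgeR adjusted p = 0.125, DESeq2 adjusted p = 0.045). EdgeR called it too when no gene with a count was filtered out (adjusted p = 0.0379). TIMM44, which tethers the import motor, had a log2 fold change of 0.43 (SE 0.20), and 0.23 without male replicate 5, where it was at 116 CPM. TIMM23, the channel partner of TIMM17, was at 0.00 (SE 0.16) and TIMM21 at 0.16 (SE 0.17).

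**Figure D2:**
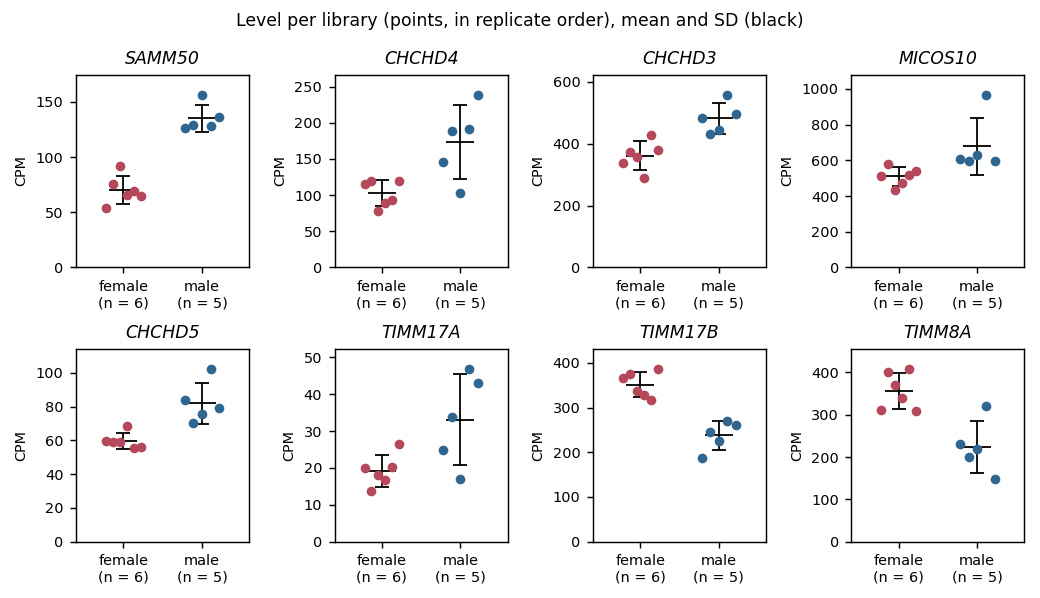
Level in CPM (y axis, from 0) of 8 genes in each library, with 6 female and 5 male points in replicate order and the mean and SD in black. SAMM50, CHCHD3, MICOS10 and CHCHD5 show every male above every female and TIMM17B every male below, while the sexes overlap in CHCHD4, TIMM17A and TIMM8A.

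The TIM22 translocase and the small TIM chaperones serve the carrier proteins. Of 8 genes, 7 had a positive log2 fold change and 1 a negative one, with a median of 0.20, and edgeR called none. The chaperones TIMM9, TIMM13 and TIMM8B had log2 fold changes of 0.21 (SE 0.18), 0.27 (SE 0.13) and 0.27 (SE 0.17). TIMM22, the carrier channel, was at 0.20 (SE 0.14) and TIMM10B at 0.14 (SE 0.16). TIMM29 was the gene with the fewest counts of those tested, at 9 to 46 per library, and its value of 0.02 had an SE of 0.49.

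TIMM10, which forms the chaperone ring with TIMM9 (chromosome 15, 80788219 to 80790815), separated the sexes. It was at 45.1 to 55.1 CPM in females, with a median of 51.2 CPM, and at 61.1, 59.7, 64.6, 63.7 and 88.3 CPM in males. The difference held in every library but did not pass the test over all genes (log2 0.40, SE 0.15, edgeR adjusted p = 0.288), and the log2 fold change was 0.30 without male replicate 5. The means were 50.6 ± 4.32 CPM (SD, n = 6) and 67.5 ± 11.8 CPM (SD, n = 5).

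TIMM8A (X chromosome, 50861952 to 50864657), whose loss causes a human deafness-dystonia syndrome, had the most negative value of the 42 genes. In females it ranged from 309 to 407 CPM with a median of 355 CPM. In males it was 232, 200, 218, 320 and 149 CPM. Male replicate 4 reached into the female range and the other 4 males were below it. The means were 356 ± 42.9 CPM (SD, n = 6) and 224 ± 62.1 CPM (SD, n = 5), with a log2 fold change of -0.67 (SE 0.19, edgeR adjusted p = 0.136). Without male replicate 4 the log2 fold change was -0.88 (edgeR adjusted p = 0.0384), and DESeq2 called the gene (adjusted p = 0.0617). Without the library number as a block, edgeR also called it, at the same log2 fold change of -0.67 (adjusted p = 0.0831). Leaving out any library other than male replicate 4 brought no call for TIMM8A (edgeR adjusted p 0.106 to 0.319). Without male replicate 5 its log2 fold change was -0.55, which is under the threshold. Nor was TIMM8A called with the number in the sample title as a block (edgeR adjusted p = 0.203). With TMM factors from autosomal genes it also fell short (edgeR adjusted p = 0.12).

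TIMM8A and TIMM17B were the only X-linked genes of the 43. X-linked genes as a whole were lower in males: the median log2 fold change of the 476 tested was -0.85, with quartiles at -1.36 and -0.54, and 27.7% of them were called higher in females. In 29.2% of them every female library was above every male. TIMM8A lay inside these quartiles, with 63.4% of X-linked genes more negative. TIMM17B also did, with 72.3% more negative. Without these 2 genes, 34 of the 40 autosomal members were positive and the median was 0.22.

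For both X-linked genes the table also lists an autosomal paralogue, so the balance of the forms could be compared within each library, where it does not depend on the scaling between libraries. The log2 ratio of TIMM17B to TIMM17A was 3.85 to 4.75 in females and 2.90, 2.85, 3.71, 2.53 and 2.60 in males. The sexes did not overlap. The means were 4.21 ± 0.31 (SD, n = 6) and 2.92 ± 0.47 (SD, n = 5), a difference of -1.29, so that the ratio was 2.45-fold lower in males (exact permutation test, two-sided, adjusted p = 0.00649 over 6 pairs, raw p = 0.00216, which no result of this design can go below). The ratio of TIMM8A to TIMM8B also separated the sexes, at 1.54 to 2.30 in females and 1.22, 0.64, 1.10, 0.97 and 0.30 in males. Here the difference in mean log2 ratio was -0.99, a 1.99-fold lower ratio in males (two-sided exact permutation test, p = 0.00216, adjusted p = 0.00649). With any 1 library left out, these differences stayed between -1.49 and -1.18 and between -1.09 and -0.86. CPM are not divided by gene length, so the ratios give the change between sexes and not which form was the more abundant. The pairs were chosen with earlier results of these data known, which the adjustment over 6 pairs does not cover. Both ratios set an X-linked gene over an autosomal one. The median log2 fold change was -0.85 over tested X-linked genes and 0.02 over tested autosomal genes. How often other ratios of an X-linked to an autosomal gene separate the sexes was not tested.

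The other 4 pairs did not pass the test. The log2 ratio of OPA1, which fuses the inner membrane, to DNM1L, which divides the organelle, was -0.31 ± 0.20 (SD, n = 6) in females and -0.59 ± 0.22 (SD, n = 5) in males, a difference of -0.29 (two-sided exact permutation test, p = 0.0584, adjusted p = 0.117). With the mean of each library number removed, the difference was -0.28 and the adjusted p of the permutation test was 0.0173. The splits still ran over all libraries and not within a library number, so that p is not exact. Without male replicate 1 the difference was -0.38 (exact permutation test, adjusted p = 0.0286). The ratio of TOMM40L to TOMM40 differed by 0.05 (exact permutation test, p = 0.877), with SDs of 0.47 in females and 0.66 in males. The ratio of MFN2 to MFN1 differed by 0.39 (exact permutation test, p = 0.214, adjusted p = 0.321) and that of PMPCA to PMPCB by 0.75 (exact permutation test, p = 0.294, adjusted p = 0.353). Without male replicate 5 the last 2 differences were 0.14 and 0.10.

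**Figure D3:**
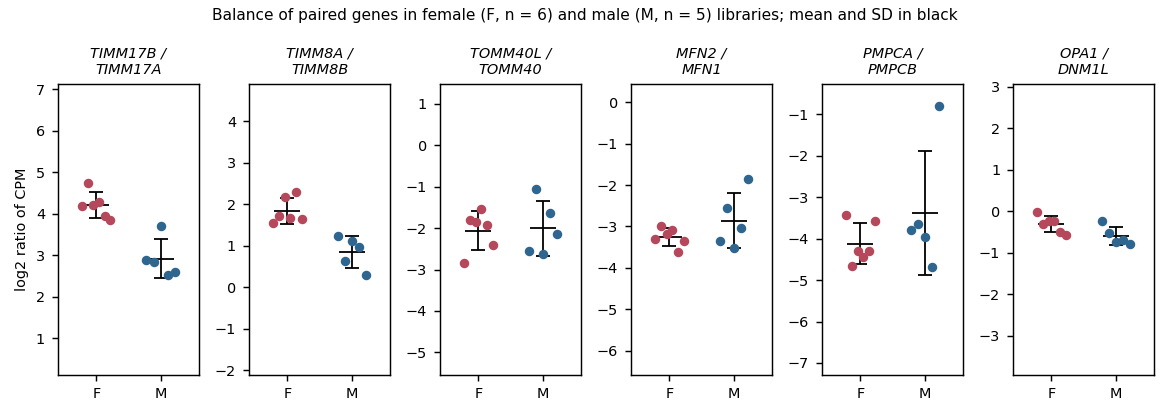
Log2 ratio of CPM (y axis, each panel spanning the same number of log2 units) of 6 gene pairs in the 6 female (F) and 5 male (M) libraries, with mean and SD in black. The sexes are apart for TIMM17B over TIMM17A and TIMM8A over TIMM8B, and overlap in the other 4 pairs. Only the pairs that are apart set an X-linked gene over an autosomal one.

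The processing peptidase removes presequences in the matrix. PMPCB, its catalytic subunit, had a log2 fold change of 0.03 (SE 0.23). PMPCA, its substrate-binding subunit (chromosome 11, 103865177 to 103875087), was at 8.66 to 20.4 CPM in females, with a median of 12.3 CPM, and at 18.3, 18.3, 17.1, 11.4 and 62.1 CPM in males. Only male replicate 5 was above the female range. The means were 13.3 ± 4.41 CPM (SD, n = 6) and 25.4 ± 20.7 CPM (SD, n = 5), and the log2 fold change was 0.79 (SE 0.38, edgeR adjusted p = 0.408). Without male replicate 5 it was 0.25 (edgeR adjusted p = 0.69).

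The MICOS complex shapes the cristae. All 5 of its tested genes within this name list had positive log2 fold changes, from 0.17 to 0.42 with a median of 0.38. Of these, 3 passed an unadjusted p of 0.05 and edgeR and DESeq2 called none. CHCHD3, a subunit on the side of the SAM complex (chromosome 4, 96468819 to 96761348), was at 289 to 429 CPM in females, with a median of 364 CPM, and at 483, 432, 444, 557 and 496 CPM in males. The sexes did not overlap, though the lowest male and the highest female were close. The means were 361 ± 46.4 CPM (SD, n = 6) and 482 ± 49.6 CPM (SD, n = 5), with a log2 fold change of 0.39 (SE 0.12, edgeR adjusted p = 0.172).

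MICOS10, a small membrane-bending subunit (chromosome 2, 133072136 to 133110131), was at 431 to 580 CPM in females, with a median of 517 CPM, and at 606, 596, 630, 965 and 598 CPM in males. The sexes did not overlap, and 4 of the males lay close together just above the highest female. The log2 fold change was 0.38 (SE 0.15, edgeR adjusted p = 0.294), and 0.23 without male replicate 4 (edgeR adjusted p = 0.417). IMMT, the large core subunit (chromosome 11, 48673694 to 48716315), was at 79.7 to 99.1 CPM in females, with a median of 89.5 CPM, and at 122, 93.2, 93.9, 112 and 182 CPM in males. Male replicates 2 and 3 were within the female range and the other 3 were above it. Its log2 fold change was 0.42 (SE 0.18, edgeR adjusted p = 0.35), and 0.26 without male replicate 5. MICOS13 was at 0.25 (SE 0.17) and CHCHD6, a paralogue of CHCHD3, at 0.17 (SE 0.41). The value of CHCHD6 was negative without male replicate 5, at -0.22. Of the 42 tested genes, CHCHD6 had the widest relative spread among the female pools, 49.7% of its mean.

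Of the 6 other genes named for the CHCH domain, a fold held by disulfide bonds, 5 had positive log2 fold changes, with a median of 0.31. CHCHD4 is described above with its call. CHCHD5 (chromosome 11, 46282973 to 46350213) separated the sexes, at 55.6 to 68.5 CPM in females with a median of 59.0 CPM, and at 83.7, 70.2, 75.7, 102 and 78.9 CPM in males. The lowest male was close to the highest female, and the difference did not pass the test (log2 0.46, SE 0.15, edgeR adjusted p = 0.197). CHCHD10 was at 0.44 (SE 0.34), or 0.14 without male replicate 5, and its paralogue CHCHD2 at 0.10 (SE 0.14). CHCHD1 was at 0.18 (SE 0.16) and CHCHD7 at -0.26 (SE 0.19).

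The fusion and fission genes were not called by either tool. MFN2, an outer membrane fusion protein (chromosome 16, 41683878 to 41711316), averaged 9.03 ± 1.14 CPM in the females (SD, n = 6) against 12.6 ± 4.63 CPM in the males (SD, n = 5), where male replicate 5 reached 20.5 CPM. Its log2 fold change was 0.44 (SE 0.26, edgeR adjusted p = 0.51), and 0.21 without male replicate 5. MFN1 was at 0.03 (SE 0.17), OPA1 at -0.09 (SE 0.15) and DNM1L at 0.19 (SE 0.16). TIMMDC1 (chromosome 1, 64275405 to 64295242) averaged 28.2 ± 2.93 CPM (SD, n = 6) and 24.0 ± 7.93 CPM (SD, n = 5), with 10.3 CPM in male replicate 5. Its log2 fold change was -0.24 (SE 0.25), and -0.03 without that library.

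In every male library the median of the genes was above the female mean, but the genes did not all move in 1 direction. Summed over the 43 genes, they held 0.631% to 0.693% of the counts in females and 0.61% to 0.743% in males, before scaling between libraries. The median difference from the female mean, over the 42 tested genes, was 0.17, 0.09, 0.07, 0.34 and 0.30 on the log2 scale in male replicates 1 to 5. It was between -0.05 and 0.03 in the females, on whose own mean each gene was centred. Male replicate 4 had the highest level in 12 of the 42 genes and the lowest in 0. Male replicate 5 had the highest level in 16 and the lowest in 8. These medians and counts were not made over all tested genes. A shift of these genes thus cannot be told apart from a shift of the whole library. Without both of these libraries the median log2 fold change of the 42 genes was 0.14.

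The male pools varied more in these genes. The same comparison over all tested genes was not made, so the larger spread cannot be called particular to them. The median coefficient of variation of the 42 genes was 13.2% in females and 25.2% in males, and it was larger in males in 34 of the 42 genes. Without male replicate 5 the male median was 17.7%, and the coefficient was larger in males in 26 of the 42 genes.

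**Figure D4:**
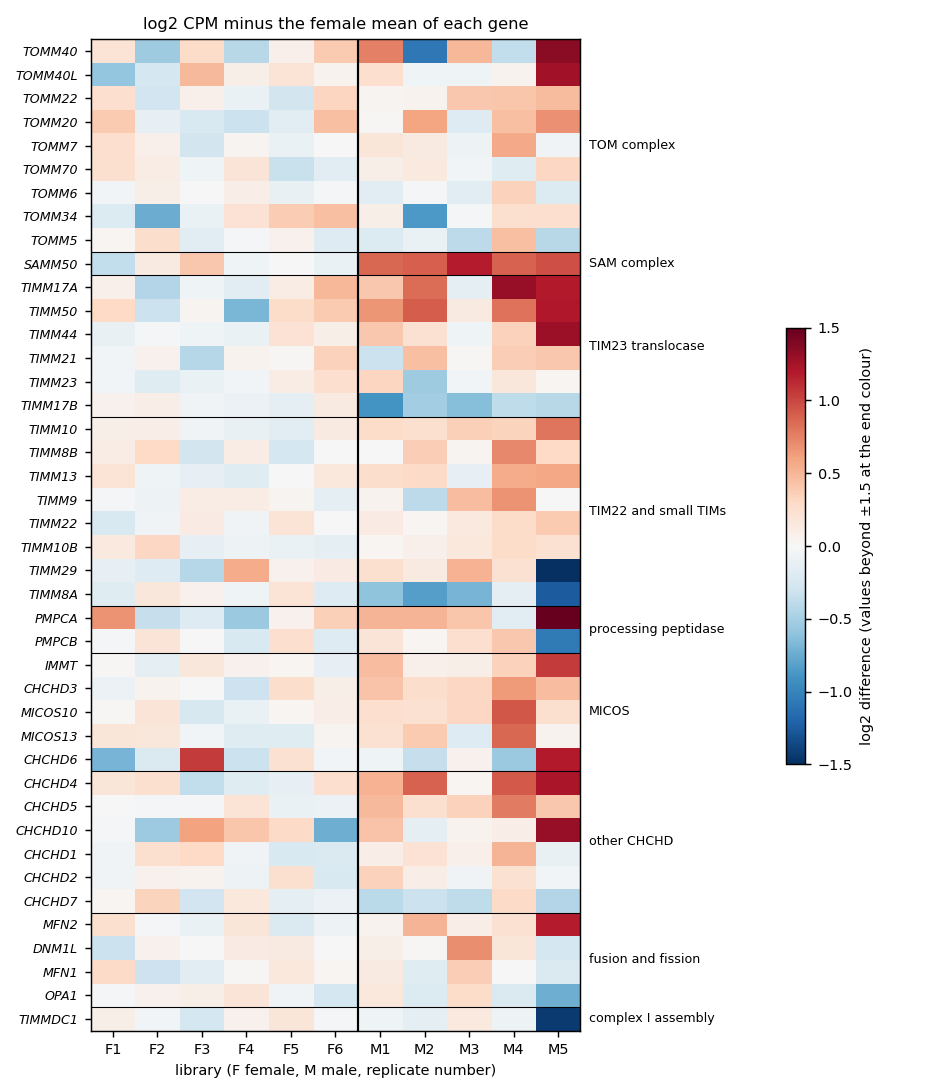
Log2 CPM of the 42 tested genes (rows, by function) in each of the 11 libraries (columns, F female and M male), minus the female mean of the gene, from -1.5 (blue) to 1.5 (red). The SAMM50 row is red in all 5 males, the TIMM17B and TIMM8A rows are blue in the males, and male replicate 5 holds many of the strongest colours of both signs.

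The names leave out many partners of these complexes. A list of 44 such genes in the table, written from their known roles, had 32 positive and 12 negative log2 fold changes, with a median of 0.21. At an unadjusted p under 0.05, 9 were higher in males and 2 in females, against 6.26% and 6.95% of all tested genes. The test called 1 gene in each direction, GFER (male) and APOOL (female), and 4 genes (GFER, MTX1, MTCH2 and PHB1) had every male above every female. Over all tested genes these shares were 0.414% called higher in males, 1.5% called higher in females and 1.43% with every male above.

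GFER, the sulfhydryl oxidase that reoxidizes CHCHD4 (chromosome 25, 1539898 to 1542223), was at 41.1 to 62.1 CPM in females and at 85.1, 83.6, 76.9, 97.5 and 105 CPM in males. The sexes were apart. The means were 49.5 ± 7.2 CPM (SD, n = 6) and 89.6 ± 11.4 CPM (SD, n = 5), with a log2 fold change of 0.83 (SE 0.16, edgeR adjusted p = 0.0289). GFER was called in 10 of the 11 fits that left out 1 library, and not without male replicate 3 (edgeR adjusted p = 0.106). Both partners of the disulfide relay were thus called higher in males, GFER in nearly all of these fits and CHCHD4 with all 11 libraries and in none of them. MTX1, a SAM subunit that works with SAMM50, passed the FDR with a fold change under 1.5 (log2 0.54, SE 0.13, edgeR adjusted p = 0.0814).

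The list had 3 X-linked genes. APOOL, a lipid-binding MICOS subunit, averaged 66.5 ± 21.1 CPM in the females (SD, n = 6) against 34.8 ± 6.25 CPM in the males (SD, n = 5) (log2 -0.83, SE 0.21, edgeR adjusted p = 0.0904). The call was kept in 2 of the 11 fits that left out 1 library, those without female replicate 6 and without male replicate 4. APOO, its relative in the same complex, had a log2 fold change of -0.49 (SE 0.19, edgeR adjusted p = 0.29). AIFM1, which binds CHCHD4 and aids its import, was at -0.32 (SE 0.20, edgeR adjusted p = 0.531). The sexes overlapped in all 3. Of the 476 tested X-linked genes, 449 were negative. More negative than APOOL were 50.8% of them, than APOO 77.9% and than AIFM1 86.8%. The X-linked MICOS genes were thus negative, like most X-linked genes. The autosomal MICOS genes above were positive, with CHCHD6 negative without male replicate 5.

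By position, 13 of the 43 genes overlap another gene model in the annotation, and the library kit does not keep strand, so reads in the shared stretch cannot be assigned to one of them by strand. CHCHD5, TIMM10, MICOS10, OPA1 and DNM1L are among these, as is TIMM8B, the denominator of one of the ratios that separated the sexes, which shares 88 bases with NKAPD1. SAMM50, CHCHD4, TIMM8A and TIMM17B overlap none.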

How the data were processed

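RNA-seq was run on 6 female and 5 male pools. The authors trimmed reads with fastp 0.20.0, aligned them to ARS-UCD2.0 with STAR 2.7.10b (at most 3 mismatches), counted genes with featureCounts 2.0.3 and deposited whole-number counts without normalization. All 11 libraries were used. A 4-cell Iso-seq sample was not used here. Positions came from the RefSeq gene table of ARS-UCD2.0, in which all 43 genes were found.

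Counts were fitted with edgeR 4.0.16 (R 4.3.3) after filterByExpr by sex and TMM scaling, with the first number of the library name as a block in place of the collection week of the study's methods. Calls needed a Benjamini-Hochberg FDR under 0.1 over 12802 genes and a fold change over 1.5. CPM used TMM factors, and log2 CPM a prior count of 2. Gene pairs were compared with the exact permutation test. The members, lists and pairs were chosen with earlier results of these data known. Genes given singly were those called, X-linked, with non-overlapping sexes, or with the largest absolute fold change in their functional group; partner genes were named where called or X-linked. TIMM50, MTX1, MTCH2, PHB1, PTGS2 and CYP19A1, and members given only by a fold change, were named beyond this rule. The alternatives were DESeq2 1.42.0, other blocks, scalings, filters and thresholds, and leaving out libraries. On simulated data of 12461 genes for this comparison, the test recovered 94% of genes shifted by log2 2 and 42% at log2 1, and 7.48% of its calls were unchanged genes. Gene lengths and sequences were not used here.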

Additional observations from a re-analysis of the deposited data

Results flagged for a closer look

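In 7 of 50 groups of libraries examined, 1 library lay far from the others by Dixon's criterion, and 4 of the 7 were male replicate 5. Chance meets the criterion in about 1 of 20 independent groups. These groups reuse the same 11 libraries, and some genes were named for a large fold change, so that rate does not apply. PMPCA enters both alone and in its ratio to PMPCB. In male replicate 5 PMPCA was at 62.1 CPM, with the next male at 18.3 CPM, and TIMM10 was at 88.3 CPM, with the next at 64.6 CPM. TIMMDC1 was at 10.3 CPM there, with the next lowest male at 25.4 CPM. The log2 ratio of PMPCA to PMPCB was -0.80 in male replicate 5 and -3.64 in the next male. MICOS10 was at 965 CPM in male replicate 4, with the next male at 630 CPM. In females, CHCHD5 was at 68.5 CPM in replicate 4, with the next at 59.9 CPM, and the X-linked APOO was at 303 CPM in replicate 2, with the next at 248 CPM.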

How the results depend on the processing

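SAMM50 was called in all 11 fits without 1 library and in every other alternative but the test of the fold change itself. Against 2 members called higher in males, 4 were called by DESeq2 (with the library number, without it, or with both numbers), 3 with every gene of at least 1 count (TIMM50 added), 1 with the title number as a replicate block, 1 with autosomal TMM factors, 1 at an FDR of 0.05, 1 without both male replicates 4 and 5 (an alternative chosen after seeing the data), 0 when the fold change was tested, and 1 to 2 without 1 library. Over all genes, 0.414% were called higher in males in the main fit. By DESeq2 it was 1.04% to 1.52%, with every gene of at least 1 count 0.876% and with autosomal TMM factors 0.367%. It was 0.187% with the title-number block, 0.164% at an FDR of 0.05, 0.136% without both males and 0.0781% with the fold change tested. Without 1 library it was 0.116% to 0.71%. Against 0 members higher in females, 1 was called by each DESeq2 fit, without a replicate block, with autosomal TMM factors and with every gene of at least 1 count, and 0 to 2 without 1 library. Partner genes higher in males, 1, became 2 by DESeq2 with no replicate block, and 0 with the title-number block, with the fold change tested, or without both males (0 to 2 without 1 library). Partner genes higher in females, 1, became 0 with the fold change tested, at an FDR of 0.05 or without both males (0 to 2 without 1 library). Over all genes, the share called higher in females was 1.5% in the main fit and 3.14% to 3.98% by DESeq2. It was 1.8% without a replicate block, 1.65% with autosomal TMM factors and 2.24% with every gene of at least 1 count. It was 0.812% at an FDR of 0.05, 0.739% without both males and 0.406% with the fold change tested. Without 1 library it was 0.617% to 2.1%. The cause of these changes was not tested. The median log2 fold change of the members was 0.16 to 0.24 without 1 library and 0.18 with autosomal TMM factors. TIMMDC1 turned to 0.02 without both males, and the TOMM40L to TOMM40 ratio ranged from -0.18 to 0.21 without 1 library. The difference in the OPA1 to DNM1L ratio was -0.28 with a replicate block (permutation test over all splits, not exact here, adjusted p = 0.0173). It ranged from -0.38 to -0.23 without 1 library. Deviations from the sex means were correlated between female and male libraries. With the same library number, r was -0.111 to 0.351 over 10 pairs (median 0.00045). With different numbers it was -0.297 to 0.245 over 20 pairs (median -0.0508). With the same title number it was -0.111 to 0.351 over 5 pairs. So few pairs cannot tell whether libraries of one number share a week or a bull. Depth limits TIMM29 and TOMM20L most.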
